A study of Oryza sativa with 18 samples.

Results

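Panicle_UN4 is 1 of the 16 cell state columns that the authors give for the rice panicle, in a table of 128 columns over 9 organs or stages. It was taken by its name, as the candidate for the state that the authors' list of specific regions calls IM of panicle, and it was compared with the mean of the other 15 panicle columns and with the column SM of panicle, the spikelet meristem. The nuclei came from fresh tissue of Oryza sativa, genotype Nipponbare, and the 2 panicle libraries (Panicle_1 and Panicle_2, of 18 libraries) differ by replicate number only. The assay was single-cell ATAC-seq: a transposase cuts and tags open chromatin and a droplet barcode marks each nucleus. The authors pooled the nuclei of a state into 1 value per region, a log2 value derived from CPM (reads scaled to the same total in each column), so no column has a replicate, an SD or a p-value, and every difference given here is a size without a test. The sources used here do not state plant age, panicle stage or nuclei per state.

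The inflorescence meristem is the dome of dividing cells at the tip of a young panicle. In rice it forms the primary branches and then stops growing, and the branches in turn form further branches, spikelet meristems and the floral meristems inside the spikelets. Open chromatin marks promoters and enhancers that transcription factors can reach, and cell types differ in part of their open regions. The column names PBM, SBM and FM are printed as the file has them. In work on rice panicles these letters commonly stand for primary branch, secondary branch and floral meristem, but the file does not spell them out.

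The 16 panicle columns had between 162 and 2587 distinct values, with a median of 691. This number stands in for depth, which is not given, because a column built from few reads can take few values. Panicle_UN4 had 427 and ranked 11 of 16 from the deepest, SM had 753, and Stamen, Rudimentary_glume, Sterile_lemma, Lodicule and Panicle_UN2 lay below Panicle_UN4. Regions were kept when at least 1 panicle column reached a CPM of 1, which left 127093 of 128764. All regions have the same width.

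The link between the column and the name IM rests on 2 observations. The list names 16 panicle states and the table holds 16 panicle columns, 15 names are shared, and IM and Panicle_UN4 are the names left over on either side. The list marks 480 regions for IM. Panicle_UN4 was the highest of the 16 panicle columns in 195 of them, 40.6% (exact 95% binomial interval 36.2 to 45.2, counting error only), while it was highest in 5.65% of all regions kept. FM came next and led 11.9% of the IM regions, against 6.84% of all regions kept, and PBM led 9.58%, against 5.25%. Sterile_lemma led 10.4%, close to its 9.68% of all regions, and SBM 10.2%, below its 11.4%. SM led 2.50%, against 3.91%, and Rachis 0.417%, against 2.58%. List and table come from the same nuclei, so these shares describe how the files relate and test nothing.

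The other 15 panicle lists give the scale for that share, because their columns carry the same name as the list. The own column led between 8.08% of the list (Panicle_UN1) and 81.9% (SBM), and it led more often than any other column in 10 of 15 lists. For SM the own column led 23.2% and SBM 29.3%. Panicle_UN4 on the IM list ranked 7 of 16 in this order, between Stamen with 43.0% and FM with 32.3%.

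**Figure D1:**
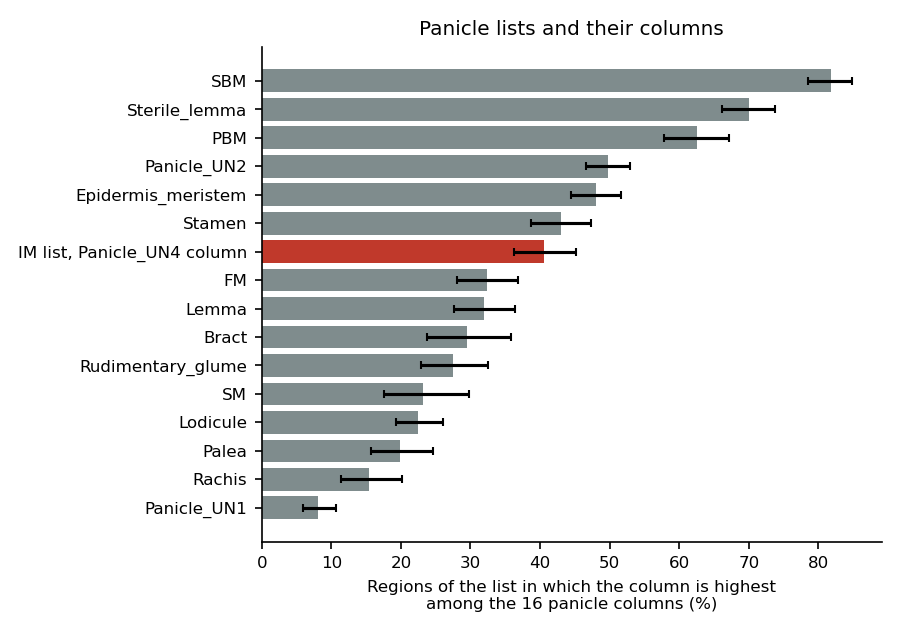
Share of the regions of each panicle list in which the column of that name is the highest of the 16 panicle columns, in percent, with exact 95% binomial intervals as bars. For the IM list the column is Panicle_UN4 (red, 40.6%), which lies within the range of 8.08% to 81.9% of the lists whose name has a column.

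The IM regions were open at a middle level in most panicle columns and higher in Panicle_UN4. The median CPM over the 480 regions was 9.48 in Panicle_UN4, 6.44 in FM, 6.04 in PBM and 5.60 in SM, and it was lowest in Epidermis_meristem (3.65) and Panicle_UN2 (3.60). Over all regions kept the medians of the 16 columns lay close together, at 4.56 in Panicle_UN4 and 4.62 in SM. The medians of all columns of the table ran only from 4.25 in Companion_cell of seedling to 5.07 in Seminal_root_UN1. Such closeness can come from how the columns were scaled or normalized and is not a trait of the panicle. On the log2(CPM + 1) scale, Panicle_UN4 exceeded the mean of the other panicle columns by a median of 0.84 in the IM regions, against -0.01 over all regions kept. It lay above that mean in 464 of the 480 and by more than 1 in 180, or 37.5%, where 1.33% of all regions kept were past this limit. Against SM the median difference was 0.71, 147 IM regions (30.6%) were higher by more than 1, against 1.53% of all regions kept, and 0 were lower by more than 1, against 1.01% of all regions kept.

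The share differed with how many states the list names for a region. A region of the IM list named a median of 9 states (middle 50% from 6 to 11, at most 17) and a median of 4 organs. Panicle_UN4 led 68.1% of the 47 regions with 1 to 3 named states, 47.3% of the 91 with 4 to 6, 40.9% of the 132 with 7 to 9 and 31.4% of the 210 with 10 or more. The median difference from the mean of the others fell along the same order, from 1.25 through 0.89 and 0.80 to 0.68. IM was the only panicle state named in 131 regions, and Panicle_UN4 led 74.0% of these and 28.1% of the 349 that also name another panicle state. List and table come from the same nuclei, and a region naming few states is one for which few other columns were picked. This order can therefore follow from how the regions were listed, and it tests nothing.

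The 480 regions shared most with the list of FM, 148 regions, which is 30.8% of the IM list and 32.3% of the FM list. PBM shared 109 (22.7% of IM, 25.6% of PBM), SBM 70 (14.6% and 11.9%) and SM 58 (12.1% of IM and 29.3% of the shorter SM list). The smallest overlap was with Epidermis_meristem, 20 regions (4.17% and 2.58%). In the 58 regions listed for both IM and SM the median CPM was 9.80 in Panicle_UN4 and 9.04 in SM, with a median difference of 0.00 on the log2(CPM + 1) scale. In the 140 regions listed for SM without IM it was 6.03 in Panicle_UN4 and 9.56 in SM, and in the 422 listed for IM without SM it was 9.37 and 5.17.

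The list names 9 regions for IM and for no other state of the atlas. The list was made from the same nuclei by a rule that is not given, so the values of these regions are a description. At chr4:13243658-13244158 the CPM was 13.4 in Panicle_UN4, and in the other 15 panicle columns the lowest value was 1.09, the median 2.30 and the highest 3.93, in Sterile_lemma. The 15 other columns did not reach the Panicle_UN4 value, and SM stood at 3.08. Panicle_UN4 stood at 9.25 in chr12:26255648-26256148, and the others ran from 0.281 in Lodicule through a median of 2.41 to 4.09 in PBM. At chr12:24779951-24780451 it was 12.1, with the others from 1.78 through 3.18 to 7.45 in PBM, and the next value was 6.86 in SBM. Here the columns nearest to Panicle_UN4 were PBM and SBM.

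The region chr9:19655294-19655794 had a CPM of 9.86 in Panicle_UN4, with the others from 0.697 through 2.42 to 5.46 in FM. Panicle_UN4 stood at 8.65 in chr3:23609469-23609969, and the others ran from 1.60 in SM, the lowest of all 15, through 2.15 to 5.21 in FM. At chr5:29110517-29111017 it was 10.5, with the others from 2.12 through 3.15 to 5.73 in FM, close to 5.65 in PBM. In these 3 regions FM was the column next to Panicle_UN4. Panicle_UN4 stood at 11.1 in chr12:25501411-25501911, with the others from 1.37 in Sterile_lemma and a median of 2.44. PBM was the highest of them, followed by Rudimentary_glume at 4.96, and SM had 4.62.

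The remaining regions listed for IM alone were as open in FM as in Panicle_UN4, or nearly so. At chr5:27909808-27910308 the CPM was 8.21 in Panicle_UN4 and 7.30 in FM, then 5.05 in Panicle_UN1, and the lowest of the 15 others was SM with 0.366. At chr2:5104186-5104686 Panicle_UN4 had 11.4 and FM 14.7, while the next column, SM, had 4.79 and the median of the 15 others was 2.73. In all 9 regions Panicle_UN4 exceeded every one of the 112 columns of the other organs. The highest of those was a leaf Companion_cell value in 3 of the 9, at 7.43, 3.42 and 4.48.

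Across all regions kept, Panicle_UN4 was higher than the mean of the other panicle columns by more than 1 on log2(CPM + 1) in 1685 regions (1.33%) and lower in 795 (0.626%). On the log2 values as deposited, where low regions weigh more, the counts were 4237 and 4585, so the excess of higher regions was not seen on that scale. By these counts Panicle_UN4 ranked 6 of 16 panicle columns for higher regions, below SBM (5008), PBM (2462), Epidermis_meristem (2364), Panicle_UN2 (2319) and Sterile_lemma (2233), and above SM (1075) and FM (790). It ranked 7 of 16 for lower regions. Panicle_UN4 was the lowest panicle column in 71.9% of the 795 lower regions and in 6.89% of all regions kept. The 795 regions were chosen for a low value in Panicle_UN4, so a high share follows from the choice. Rachis, the deepest column, had 183 higher and 254 lower regions, and Stamen, the shallowest, had 1175 and 2171. The part of depth in these counts was not tested.

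**Figure D2:**
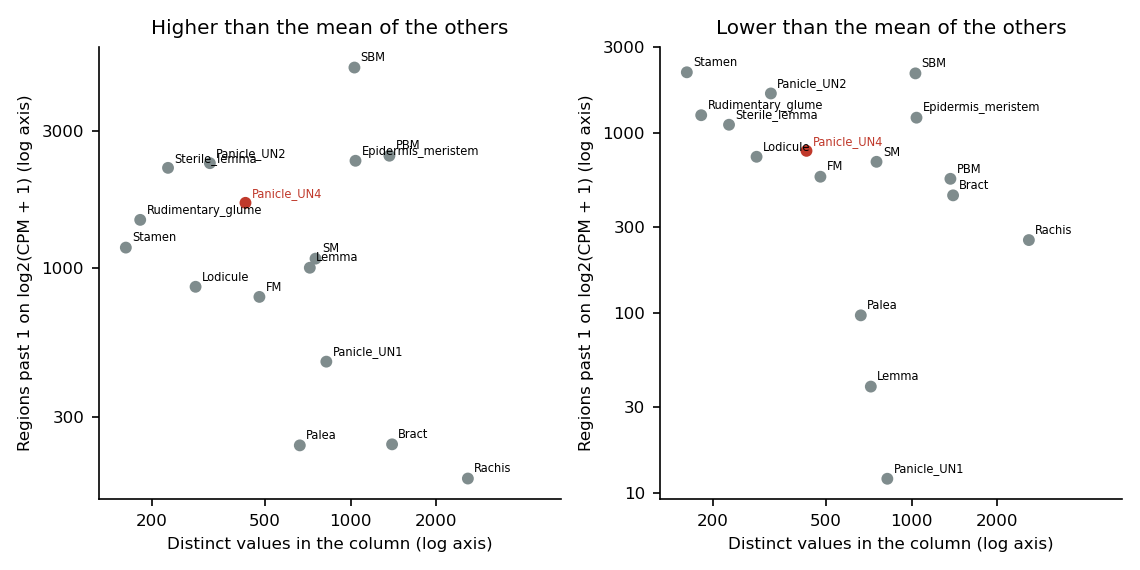
Number of regions in which each panicle column differs from the mean of the other 15 by more than 1 on log2(CPM + 1), against the number of distinct values of the column, on log axes. Panicle_UN4 (red, 427 distinct values) has 1685 higher regions on the left and 795 lower regions on the right.

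Few of these regions stood clear of the whole panicle. Panicle_UN4 was highest in 62.8% of the 1685 regions, SBM in 16.8%, PBM in 9.67%, FM in 4.93% and SM in 1.07%. Over all regions kept these columns led 5.65%, 11.4%, 5.25%, 6.84% and 3.91%. The 1685 regions were chosen for a high value in Panicle_UN4, so its own share is raised by the choice. Panicle_UN4 exceeded every other panicle column by more than 1 in 22 regions (0.0173%), against 660 for SBM, 101 for PBM, 6 for FM and 0 for SM. It fell below every other column by more than 1 in 1 region (0.000787%). The median CPM over the 1685 regions was 12.2 in Panicle_UN4 (interquartile range 7.84 to 18.1), 7.26 in PBM, 6.58 in SBM and 5.82 in SM, and it was 2.41 in Epidermis_meristem and 2.46 in Panicle_UN2. The list marks 1153 of them (68.4%) as broadly accessible and 481 (28.5%) as specific, of which 180 name IM. Over all regions kept these shares were 60.8% and 32.3%.

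The pairwise differences order the panicle columns by their distance from Panicle_UN4. Rachis differed by more than 1 in 2431 regions (1248 higher and 1183 lower in Panicle_UN4), PBM in 2982 (1217 and 1765), SM in 3230 (1949 and 1281) and FM in 3492 (2162 and 1330). Then came Bract with 5404, and SBM had 7540 (3171 and 4369). Epidermis_meristem (11769) and Panicle_UN2 (12995) were the most distant. The Pearson correlation across regions gave the same 4 nearest columns, Rachis at 0.957, PBM at 0.953, SM at 0.949 and FM at 0.947, against a mean of 0.924 ± 0.024 (SD over 15 columns). All these columns come from the same 2 libraries, and the deepest column was also the nearest, so neighbours in this order are not told apart beyond their error. The counts also depend on the spread of each column. The SD of its differences from the mean of the others was largest in SBM (0.488), against 0.280 in Bract. These differences correlated with those of Panicle_UN4 at 0.350 for PBM, 0.234 for Rachis and 0.223 for both SM and FM. For SBM the value was 0.211 and for Bract -0.109, so by this measure SBM stood nearer than Bract.

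**Figure D3:**
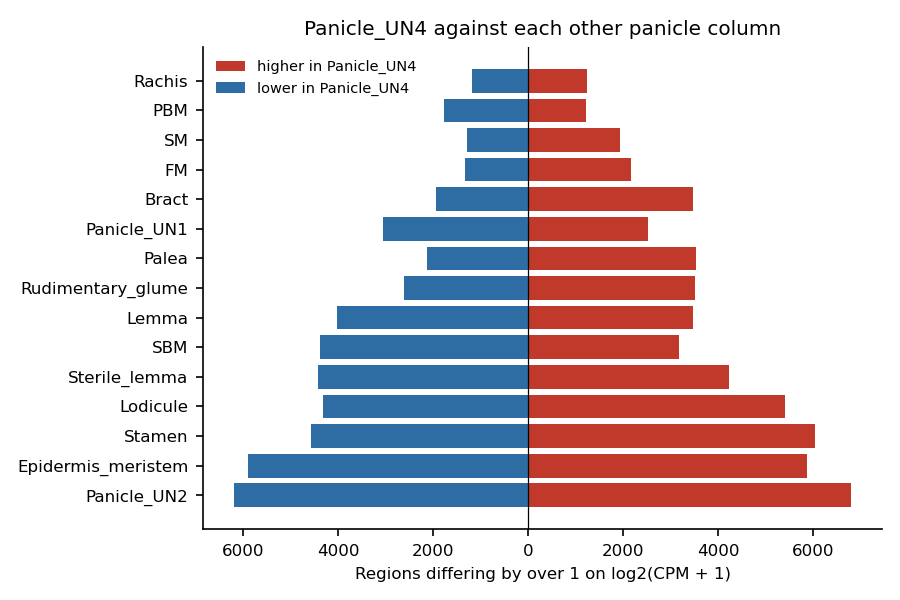
Number of regions higher (red, to the right) and lower (blue, to the left) in Panicle_UN4 than in each other panicle column by more than 1 on log2(CPM + 1). Rachis, PBM, SM and FM have the fewest such regions (2431 to 3492) and Panicle_UN2 the most (12995).

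PBM, SBM, SM and FM shared a small set of regions with Panicle_UN4. In 229 regions (0.180%) all 5 columns lay above the other 11 panicle columns, in 0 of them by a margin of more than 1. The sets in which 4 of the 5 lay above the remaining 12 columns differed in size. The set of Panicle_UN4, PBM, SBM and SM, with FM left among the rest, held 1074 regions (0.845%). Leaving out SM gave 281 regions, leaving out PBM 240, leaving out SBM 137 and leaving out Panicle_UN4 123. Epidermis_meristem, which has meristem in its name, was counted among the other columns. The columns were chosen by name, and no other set of 5 panicle columns is given as a scale. Whether such sharing is particular to these columns was not tested.

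Against SM, the spikelet meristem, Panicle_UN4 was higher by more than 1 in 1949 regions (1.53%) and lower in 1281 (1.01%). In the regions higher than SM the median CPM was 8.65 in Panicle_UN4 and 2.91 in SM, with 6.44 in FM. Panicle_UN4 was the highest panicle column in 49.4% of them, Sterile_lemma in 15.4%, FM in 15.3% and PBM in 3.69%. Over all regions kept these columns led 5.65%, 9.68%, 6.84% and 5.25%. The share of Panicle_UN4 is raised by the choice of the regions. In the regions lower than SM the median CPM was 2.21 in Panicle_UN4, 2.52 in FM, 6.84 in SM and 7.07 in SBM. SBM was highest in 36.8% of these and SM in 19.8%, against 11.4% and 3.91% of all regions kept. The share of SM is likewise raised by the choice. In both sets the FM median lay nearer to Panicle_UN4 than to SM, and in the lower set the SBM median lay nearer to SM.

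Among the 5 regions with the largest excess over SM, FM was the highest other panicle column in 2, a count too small to read as a link. The region chr5:27909808-27910308, given above, had the widest excess over SM, 2.75 on log2(CPM + 1). At chr3:6836988-6837488 the CPM was 13.7 in Panicle_UN4, 1.39 in SM and 9.14 in Sterile_lemma, with a median of 2.33 over the 15 other columns. At chr6:24320779-24321279 Panicle_UN4 had 15.2, SM 2.17, Stamen 14.3 and FM 9.97. Panicle_UN4, Stamen and FM stood together there, and the list names the region for all of Stamen, FM and IM. At chr3:215254-215754 Panicle_UN4 had 5.31, FM 6.84 and SM 0.241, and the region chr7:28649553-28650053 had 15.9, 2.45 in SM and at most 8.20 in any other panicle column.

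In the opposite direction SBM or Rudimentary_glume led the region beside SM each time. At chr3:22709117-22709617 the CPM was 0.790 in Panicle_UN4, 9.20 in SM and 29.7 in SBM, with a median of 1.74 over the other 15. It differed from SM by -2.51 on log2(CPM + 1), and the value was also below that of 110 of the 112 columns of other organs. At chr7:2678176-2678676 Panicle_UN4 had 1.45, SM 10.9 and Rudimentary_glume 16.7, and the list names it for all of SM, SBM and Rudimentary_glume. At chr11:2267788-2268288 the values were 1.45, 10.7 in SM and 17.3 in SBM. At chr6:1068341-1068841 they were 0.642, 6.84 in SM and 17.1 in SBM, and at chr3:8309964-8310464 they were 1.93, 12.1 in SM and 19.4 in SBM.

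Of the 10 regions that stood furthest above every other panicle column, 4 had their highest value outside the panicle in Companion_cell of leaf. Over all regions kept this column was the highest outside the panicle in 3.30%, and it is shallow, with 80 distinct values, so its single values are coarse. Companion cells sit beside the sieve tubes of the phloem and load them with sugar. The region chr4:35082227-35082727 led the order, with a CPM of 18.5 in Panicle_UN4 and, in the 15 others, 1.71 as the lowest, 3.04 as the median and 5.65 in PBM as the highest. The list marks it as broadly accessible, yet no column of the other organs exceeded 13.8. At chr8:1686693-1687193 the CPM was 23.5, with the others from 1.27 through 3.71 to 8.25 in PBM, and its highest value outside the panicle was 16.5 in Companion_cell of leaf. The list names it for IM and for Companion_cell of axillary bud.

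The region chr6:17529814-17530314 had a CPM of 11.2 in Panicle_UN4, with the others from 0.920 through 1.88 to 3.27 in Bract, and 20.2 in Companion_cell of leaf. Panicle_UN4 stood at 16.3 in chr1:406584-407084, with the others from 0.659 through 1.79 to 5.97 in FM, and 17.2 in Companion_cell of leaf. This region had the widest difference from the mean of the other panicle columns, 2.44 on log2(CPM + 1). A pair of neighbouring regions on chromosome 6 had 14.2 each, chr6:3651456-3651956 and chr6:3651997-3652497, and no other panicle column exceeded 5.52 in the former or 4.67 in the latter. The latter reached 28.6 in Companion_cell of leaf, and the former 29.2 in Seminal_root_UN1.

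Among the remaining 3 of these 10 regions, the one at chr10:21093365-21093865 had a CPM of 5.07 in Panicle_UN4 and at most 1.30 in the other panicle columns, with 12.4 in Aleurone of late seed. At chr1:18752550-18753050 it was 10.6, the highest other panicle value was 3.59 in SM, with 12.7 in Scutellum of late seed. At chr1:6458984-6459484 Panicle_UN4 had 7.23 and no other panicle column exceeded 2.50, with 7.04 in QC of seminal root. Of the 10, 5 are listed for IM, and in 4 Panicle_UN4 was the highest column of the whole table. Of the 5 IM regions with the widest difference from the mean, those not yet described lie at chr6:24309907-24310407 (CPM 15.3, at most 8.11 in PBM, and 18.2 in Developing_xylem of axillary bud) and at chr2:1449688-1450188 (16.7, at most 9.76 in FM, and 33.9 in Companion_cell of leaf).

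**Figure D4:**
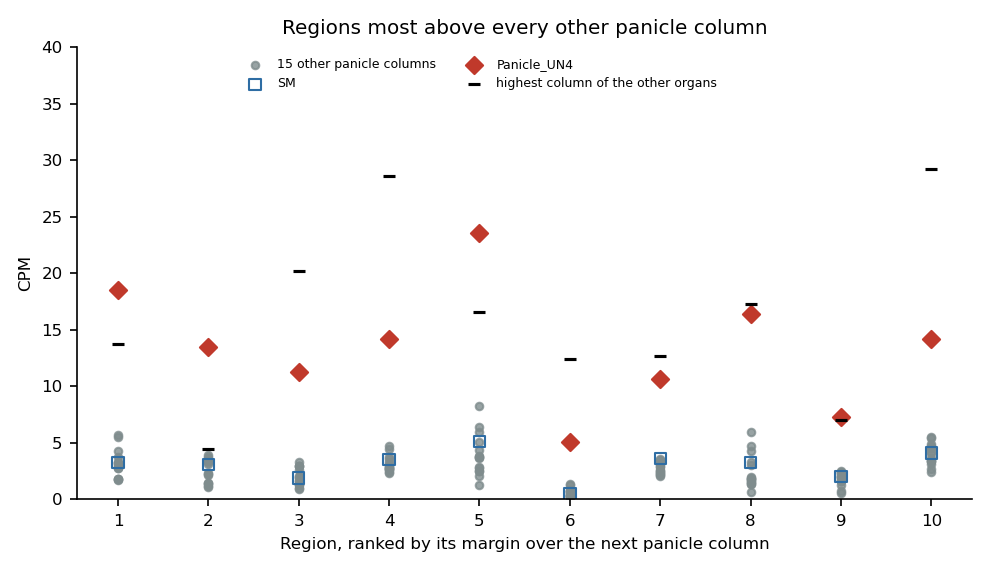
CPM of the 10 regions with the widest margin of Panicle_UN4 (red diamonds) over the next panicle column on log2(CPM + 1), with the other panicle columns as grey points, SM as a blue square and the highest column of the other 8 organs as a black dash. Panicle_UN4 lies above all panicle columns by construction, and the dash lies above it in 6 of the 10 regions.

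Where every other panicle column had a CPM of at least 5, the widest gap below the lowest of them was 0.67 on log2(CPM + 1), at chr1:35080335-35080835, with 11.7 in Panicle_UN4, 19.2 in FM as the lowest other and 39.4 in Stamen as the highest. At chr4:26801984-26802484 Panicle_UN4 had 3.04, with the others from 5.34 in FM through 11.3 to 27.7 in Lemma, and it reached 33.2 in SAM of early seedling. Panicle_UN4 stood at 5.31 in chr1:40283637-40284137, with the others from 8.73 in FM to 27.0 in Panicle_UN2, and 36.7 in Guard_mother_cell of early seedling. At chr8:430522-431022 the value was 4.69, with the others from 7.81 in PBM to 32.0 in Stamen. At chr11:15419831-15420331 it was 2.91, with the others from 5.17 in SBM to 8.94 in Lodicule. FM was the next lowest column in 3 of these 5 regions. No such share is given for all regions, so whether this is particular to FM was not tested.

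The other 8 organs come from other libraries and did not enter the choice of the 1685 and 795 regions. Each of their columns was compared with the other columns of its organ in the same way. The 10 columns named for phloem or companion cells had a median difference between -0.00 and 0.71 in the 1685 higher regions, above 0 in 9 of 10, with Companion_cell of axillary bud the highest (0.71, median CPM 8.86, above its organ in 83.6% of the regions). Over all regions kept the medians of these 10 columns lay between -0.03 and 0.03. The 7 columns named Procambial_meristem or Stele_initials lay between 0.23 and 0.50, all above 0, and the radicle meristems of both seed stages at 0.40 and 0.39. The 11 xylem columns ran from -0.18 to 0.55, with Developing_xylem of seedling the highest.

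Columns of the epidermis and the stomatal lineage went the other way. All 10 lay below 0 in the 1685 higher regions, between -0.93 and -0.23, and all 10 above 0 in the 795 lower regions, between 0.16 and 1.19. The same held for the regions higher and lower in SM, SBM and Rachis, and for PBM with 9 of 10 columns above 0 in its lower regions. The median over the 10 columns in the lower regions was 0.77 for SM, 0.55 for SBM, 1.55 for Rachis and 0.91 for PBM, against 1.07 for Panicle_UN4. In the lower regions Epidermis of early seedling had a median CPM of 13.3 and a difference of 1.19, Stomatal_precursor of seedling 12.9 and 1.18, and Epidermis of axillary bud 13.1 and 1.09, while Panicle_UN4 itself had a median CPM of 2.48. Within the panicle the lower regions were most often highest in Panicle_UN2 (28.9%) and Epidermis_meristem (25.8%), against 8.30% and 6.58% of all regions kept. The 10 columns of phloem and companion cells were all below 0 there, between -0.78 and -0.10. On the log2 values as deposited, the median over the epidermal and stomatal columns was 0.29 in place of 1.07.

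**Figure D5:**
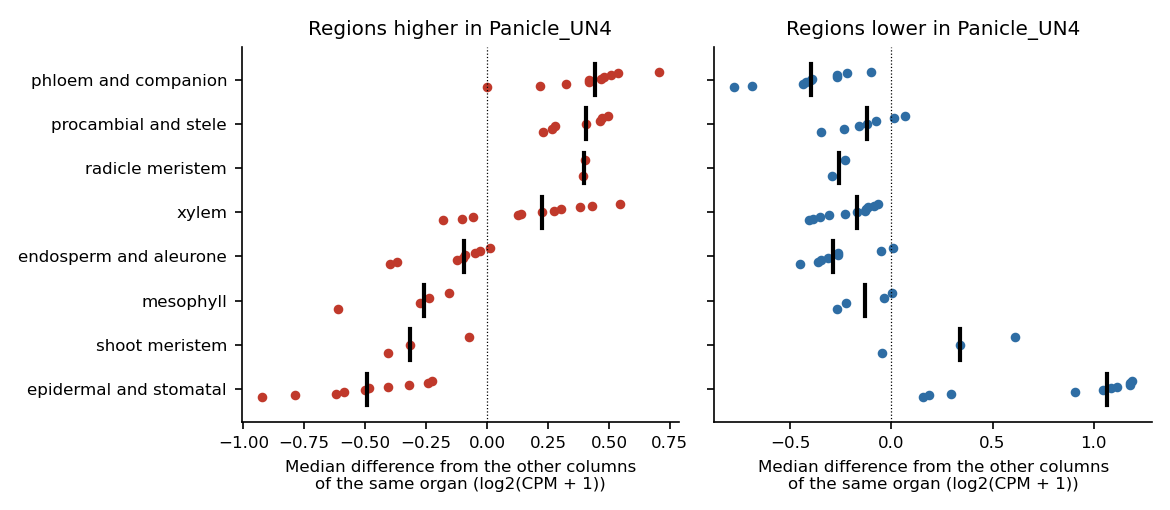
Median difference of columns of the other 8 organs from the remaining columns of their organ, on log2(CPM + 1), over the 1685 regions higher (left) and the 795 regions lower (right) in Panicle_UN4 than in the mean of the other panicle columns. Each point is 1 column, grouped by its name, and the black line is the median of the group, at 0.44 for phloem and companion columns and -0.49 for epidermal and stomatal columns on the left.

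The label of the column was set beside the named shoot meristems of other organs, since marker genes were not used here. In the 1685 higher regions the difference was -0.08 in SAM of early seedling, -0.32 in Shoot_meristem of late seed and -0.41 in Shoot_meristem of early seed. These columns were therefore not raised where Panicle_UN4 was, and in the 795 lower regions they stood at -0.05, 0.34 and 0.61. The regions higher in PBM, SBM or SM, chosen by the same limit, were likewise not raised there, with the 3 columns between -0.21 and -0.11 for PBM, between -0.28 and -0.17 for SBM and between -0.30 and -0.07 for SM. In the IM list itself the values were 0.10, -0.13 and -0.06. The state is therefore called here by its column name, and whether it is the inflorescence meristem was not tested.

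The regions higher in SM, SBM and PBM, like those of Panicle_UN4, had positive medians over the phloem and the procambial columns, and those of FM had not. In the 1075 regions higher in SM, the median over the 10 phloem and companion columns was 0.87 and that over the 7 procambial and stele columns 1.01, against 0.44 and 0.41 for Panicle_UN4. In the 5008 regions higher in SBM they were 0.63 and 0.55, and in the 2462 regions higher in PBM 0.26 and 0.61, with a median of 0.55 over the xylem columns. In the 790 regions higher in FM they were -0.06 and -0.15, and the 4 mesophyll columns were all above 0, between 0.05 and 0.17. The mesophyll columns were all below 0 for Panicle_UN4, between -0.61 and -0.16, and also for SM (-0.85 to -0.24), SBM (-0.72 to -0.30) and PBM (-0.78 to -0.27). The difference between these panicle columns was not tested, as each has 1 value per region.

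In the direct comparison with SM most procambial and stele columns lay on the side of SM, as did most phloem, xylem and radicle meristem columns. Over the 1281 regions lower in Panicle_UN4 than in SM, Procambial_meristem of seedling had a median difference of 0.62, Phloem_precursor of early seedling 0.47 and Stele_initials of crown root 0.41, and 6 of the 7 procambial and stele columns were above 0. The phloem and companion columns ran from -0.14 to 0.47 there, with 7 of 10 above 0. The xylem columns ran from -0.18 to 0.32, with 8 of 11 above 0, and the radicle meristems stood at 0.20 and 0.23. Over the 1949 regions higher in Panicle_UN4, Epiblast of early seed had 0.38, Axillary_bud_UN1 0.36, Large_parenchyma of early seedling 0.23 and Companion_cell of seedling 0.19. The 10 phloem and companion columns ran from -0.25 to 0.19 in this set, with a median of -0.04 and 5 of 10 above 0.

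The states of other organs that the list names most often in the IM regions include companion cells and procambium. Among states of other organs, Companion_cell of axillary bud is named in 97 of the 480 IM regions, 20.2%, while its own list covers 2.23% of all specific regions in the table. Procambial_meristem of axillary bud is named in 84 (17.5%, against 1.37%), Procambial_meristem of seminal root in 80 (16.7%, against 10.9%), Stele_initials of seminal root in 78 (16.3%, against 7.50%) and Companion_cell of leaf in 68 (14.2%, against 5.02%). At least 1 state of axillary bud is named in 54.2% of the IM regions, 78.3% of the SM, 71.1% of the PBM and 39.5% of the FM regions, and in 11.5% of all specific regions. At least 1 leaf state is named in 21.5% of the IM, 6.57% of the SM, 12.2% of the PBM and 17.5% of the FM regions, and in 15.9% of all specific regions. Among other states of axillary bud, Mesophyll is named in 3.33% of the IM regions, against 0.946% of all specific regions, and Epidermis in 1.67%, against 1.98%. Lists of different length enter these shares, and they were made by the authors from the same nuclei. An IM region names a median of 9 states, and shares of single states are given for the IM list only. Whether they are particular to IM was not tested.

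Over the whole table, the columns with the highest Pearson correlation with Panicle_UN4 were Rachis, PBM, SM, FM and Bract of panicle, with Bract at 0.936 across 128764 regions. The nearest column outside the panicle was Vascular_cell of axillary bud at 0.928, which ranked 8 of 127 and above 8 panicle columns. The 14 columns of axillary bud averaged 0.883 ± 0.025 (SD over columns), the 17 of seedling 0.790 ± 0.074 and the 19 of early seedling 0.774 ± 0.069. The roots, seeds and leaf lay lower, between means of 0.660 in leaf and 0.716 in early seed. Vascular_cell of axillary bud is a deep column, with 1842 distinct values. These correlations include the openness that all columns share. When each column was first set against the other columns of its organ, the order changed. The correlation of these differences was 0.350 for PBM, 0.234 for Rachis and -0.109 for Bract. In axillary bud it was 0.285 for Companion_cell and 0.276 for Vascular_cell.

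The higher regions were spread over all 12 chromosomes. Their share of the regions kept ran from 0.956% on chromosome 11 to 1.54% on chromosome 3, around 1.33% in all, and that of the lower regions from 0.363% on chromosome 7 to 0.868% on chromosome 9. Some lay side by side, and 429 of the 1685 fell into 184 runs of at least 2 consecutive regions of the table with centres at most 5000 bases apart. No such count is given for other sets of regions, so whether runs are particular to this set was not tested. The longest run held 6 regions on chromosome 4 between 19999374 and 20004623, with a CPM of 17.1 to 33.1 in Panicle_UN4, 6.39 to 22.3 in SM, and differences of 1.02 to 1.72 from the mean of the other panicle columns on log2(CPM + 1). None of the 6 is listed for IM. A run of 5 on chromosome 3 between 31668447 and 31671454 had 18.8 to 31.1 in Panicle_UN4 and 11.3 to 26.6 in SM, and there Panicle_UN4 and SM differed by at most 0.69 on log2(CPM + 1). The median distance to the nearest region of the table was 846 bases for higher and 879 for lower regions, 940.5 for the IM list and 902 for all regions kept. The build behind these coordinates is not stated by the sources used here, so genes and sequences at the regions were not analysed.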

How the data were processed

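Single-cell ATAC-seq of 18 libraries from 9 organs or stages was deposited as 2 tables. In the deposited table of 128764 regions the authors give log2 values, derived from CPM per the name of the table, for 128 cell states. The values may have been normalized beyond CPM, which was not tested. Columns have no replicate number and were taken as pooled over the libraries of its organ. BWA and MACS2 are named in the submitters' processing notes. The sources used here do not state the genome build, the clustering or the doublet treatment. The deposited list of 120048 regions marks each as broadly accessible or specific to named states, and the rule is not given. The number of columns without an organ was 0.

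Values were raised to a power of 2, a pseudocount of 1 was added and log2 was taken again. This understates changes of low regions. Kept were regions reaching a CPM of 1 in any panicle column, and a difference beyond 1 was counted. Starts in the files were read as counted from 0 and are printed from 1. The counting code was run on simulated data, with changes larger than the limit planted in regions of at least 5 CPM before the change. Read noise at low depth was not simulated, so this checks the code and not the counts given here. Python 3.11.15, pandas 2.3.3, numpy 2.4.6 and scipy 1.17.1 were used.

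Regions were named by size: the 10 most above every other panicle column at a CPM of at least 5, the 5 most below with at least 5 in every other column, the 5 furthest on either side of SM with at least 5 in the higher column, and the 5 IM regions furthest above the mean. The 9 regions listed for IM alone, the grouping of other organs' columns by name and the runs were chosen after their values were seen. Planned gene lists and motifs were not used, since no annotation of the files' build was at hand. The column, lists and limits were chosen with earlier results of these data known. Depth could not be turned into counting intervals. Binomial intervals for shares are exact, at 95%, and neighbouring regions are not independent. Alternatives were other pseudocounts, the deposited log2 values, other filters and limits, and other sets of panicle columns.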

Additional observations from a re-analysis of the deposited data

How the results depend on the processing

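The counts of regions past the limit depend on the scale. Higher than the mean of the other panicle columns were 3574 regions with a pseudocount of 0.1, 302 with 5, 4237 on the log2 values as deposited and 19 beyond 2. Lower were 3730, 23, 4585 and 2, and 509 against the mean of the 10 other columns at least as deep. Higher than SM were 5788, 297, 6533 and 37, and lower 4774, 100, 5836 and 11. Leaving out each other panicle column in turn gave 1491 to 1882 higher and 620 to 987 lower regions. Panicle_UN4 led 68.1% of IM regions with at most 3 named states, 74.0% where IM is the only panicle state, 85.8% among the 3 UN columns and 46.7% among columns at least as deep. Its mean correlation with the panicle was 0.763 over specific regions. In the lower regions, the epidermal and stomatal columns stood at 0.29 on deposited values and 1.51 beyond 1.5, alternatives chosen after seeing the data. The cause was not tested. Of 76 alternatives to 8 main results, 52 stayed within their limits and 24 moved. A reversal was defined only for the results on columns of other organs, where 0 occurred. It was not defined for the counts, where the excess of higher regions was not seen with a pseudocount of 0.1 or on the deposited values. Of 387 alternatives for 27 values of named regions, 41 moved and 0 reversed. A reversal could not occur for these values, so its absence shows nothing. Panicle_UN4 lay beyond every other panicle column in these regions, or was compared with SM alone, where a change of scale keeps the sign. No paired analysis was possible because the columns carry no replicate numbers, and for the same reason no library could be left out. Shallow columns limit what single regions can show.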
